A study of Mus musculus with 12 samples.

Results

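Dissected intracranial melanomas can carry differing amounts of the brain around them. Here 9 libraries of intracranial B16 F1 tumors were divided into classes called brain-tissue-poor and brain-tissue-rich. The division was made on measured values: each library was scored by the mean log2(CPM + 1) of Snap25, Syn1, Syt1, Slc17a7 and Rbfox3, 5 genes of neurons, where CPM is counts scaled to the library total of the library. The 4 lowest libraries form the poor class and the 5 highest the rich class, out of 12 libraries in the series. The 3 libraries of mice with both tumors under therapy are in neither class.

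All mice were C57BL/6, received 100000 B16 F1 cells into the brain, and gave tumors at day 9. The series calls the 3 libraries of each group biological triplicates. The B16 F1 line is a mouse melanoma that makes pigment. The groups used are mice with the intracranial tumor only under control IgG, mice with the intracranial tumor only under anti-PD-1 and anti-CTLA-4 (called therapy), and mice with intracranial and extracranial tumors under IgG. The labels give neither the age of the mice nor the extent of the dissection. The poor class holds all 3 therapy libraries and replicate 2 of the both-tumor IgG mice, and the rich class holds the other 5 IgG libraries. Class and antibody therefore cannot be told apart over the 9 libraries, and the both-tumor IgG mice are the one group with libraries in both classes. Replicate 2 of that group is also the one library whose sample name in the labels ends in B2, a suffix whose meaning is not given.

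Neurons, astrocytes, oligodendrocytes and microglia are the resident cells of brain tissue, and each is recognised by transcripts of its own. Brain capillaries are lined by endothelium with tight junctions and carrier proteins that form the blood-brain barrier. Tumor vessels, in contrast, are often permeable. Interferon gamma, which is made by T and NK cells, switches on antigen presentation and chemokine genes in most cells, tumor cells included.

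The neuron score was 1.14, 0.53, 0.40 in therapy replicates 1 to 3 and 0.76 in both-tumor IgG replicate 2. In the rich class it was 5.11, 3.99 and 5.72 in intracranial IgG replicates 1 to 3, and 5.33 and 5.98 in both-tumor IgG replicates 1 and 3. The libraries on either side of the division were therapy replicate 1 at 1.14 and intracranial IgG replicate 2 at 3.99. The same 4 libraries were lowest when any 1 of the 5 genes was left out, when the score was scaled by TMM factors, and by the astrocyte and oligodendrocyte lists. The 3 libraries outside the classes scored 5.10, 7.03 and 6.70. Even in rich libraries the 5 genes held at most 0.0405% of the reads.

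Library totals ran from 18427495 to 22294182 reads. Genes with at least 1 read numbered 20232 to 20996 in poor libraries and 21328 to 22184 in rich ones, and mitochondrial genes took 0.490% to 0.888% of poor and 0.903% to 1.43% of rich libraries. Neither measure overlapped between the classes, and their part in the results was not tested.

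Of 14911 genes tested with edgeR's quasi-likelihood test, 662 were called higher in poor libraries, 4.44% of those tested, and 1749 were called lower, 11.7% (adjusted p under 0.05). Without regard to the test, 610 genes (4.09%) lay above every rich library in all poor libraries and 1839 (12.3%) lay below. Over all genes tested, the median of log2 fold changes (poor minus rich) was -0.03. As the classes were selected on measured values, these calls describe the libraries and carry no weight as tests. The genes called lower took 1.92% to 2.18% of the reads of poor libraries and 3.35% to 5.33% of rich ones. A further pair of fits holds the label group or the antibody constant, each resting on 1 poor library, both-tumor IgG replicate 2, which was also used in the division. With the label group as a term, 346 genes (2.32%) were called higher and 761 (5.10%) lower. Within the 6 IgG libraries alone, 12 of 16383 genes (0.0732%) were called higher and 236 (1.44%) lower. Counts from both fits stand beside those lists below that had a gene called in the main fit. The labels "higher" and "lower" below refer to these calls, and values are log2 fold changes, poor minus rich, ± SE. In bulk tissue, fewer cells of a type and less RNA per cell cannot be told apart.

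**Figure D1:**
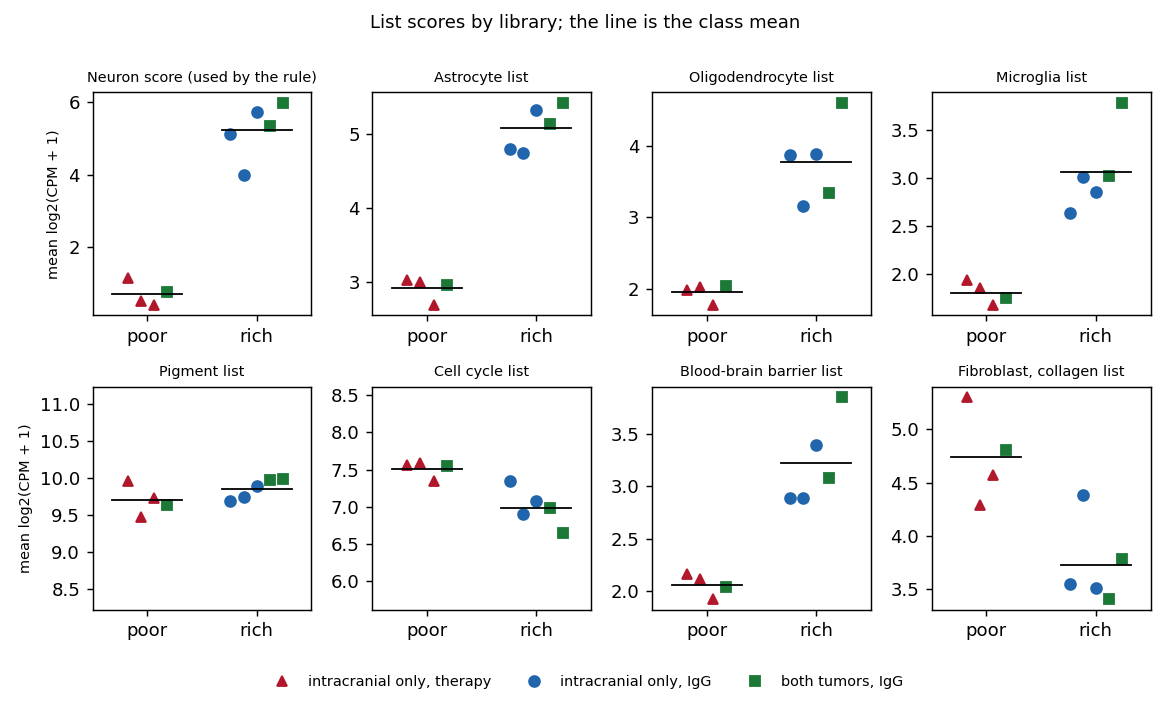
Mean log2(CPM + 1) of 8 gene lists in each poor and rich library, each panel on its own axis, with symbols for the 3 groups and a line at the class mean. The pigment list overlaps between the classes, while the astrocyte, oligodendrocyte, microglia and blood-brain barrier lists lie lower in every poor library.

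Brain cell genes outside the score were the largest difference. All 16 tested genes of the other-neuron list were called lower, with a median of -4.38, and 14 of them did not overlap. With the label group as a term 8 of 16 were called lower, and within the IgG libraries 5 of 16. Camk2a, a kinase of excitatory synapses, had -6.33 ± 0.64. Gad1, which makes the inhibitory transmitter GABA, had -3.99 ± 0.52, so genes of excitatory and inhibitory neurons were both low. The smallest fold in the list was that of Stx1a, a synaptic vesicle fusion protein, at -0.99 ± 0.30, whose values overlapped between the classes.

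Astrocyte genes were lower for 10 of 12 members, with a median of -1.80, for 6 of 12 with the label group as a term and for 4 of 12 within the IgG libraries. Gfap, the intermediate filament of reactive astrocytes (chr11:102887336-102900912, GRCm38), stood at 15.7, 19.1, 12.2 and 18.2 CPM in the poor libraries (therapy 1 to 3, then both-tumor IgG 2). In the rich libraries it stood at 189, 160, 290, 195 and 250 CPM (intracranial IgG 1 to 3, then both-tumor IgG 1 and 3), a change of -3.69 ± 0.20. Every rich library lay well above every poor one. Slc1a2, the main glutamate transporter of astrocytes, had -6.36 ± 0.59. In contrast, Gja1, a gap junction protein, had 0.18 ± 0.14, and Aldh1l1, a folate enzyme, had -0.45 ± 0.19, with 37.8 to 71.5 CPM in poor libraries.

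Oligodendrocyte genes were lower for 9 of 11 tested members, with a median of -2.66. With the label group as a term 2 of 11 were called, and within the IgG libraries 0 of 12. Mog, a protein of the outer myelin surface, had 2 reads in the poor class and 235 in the rich class, a ratio of rich to poor of 97.7 (95% interval 26.7 to 811, counting error only). Opalin had 0 reads in the poor class and 34 in the rich class, so it was at least 9.42-fold higher in rich libraries against a floor of 3 reads over the class. Mbp, the myelin basic protein gene, remained at 177, 222, 145 and 149 CPM in poor libraries against 261, 181, 350, 235 and 458 CPM in rich ones, with overlap. Thus markers of the same cell type differed widely in the size of their difference between the classes. Olig2, a transcription factor of the oligodendrocyte lineage, had 2 reads against 517, a ratio of 215 (59.2 to 1779).

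Of the microglia list, 10 of 11 tested genes were called lower, with a median of -1.90. Sall1, a transcription factor that marks microglia apart from incoming macrophages, had -4.08 ± 0.38, and Siglech, a surface lectin, had -4.42 ± 0.66. Cx3cr1, the fractalkine receptor, had -3.30 ± 0.54. Tmem119, a microglial membrane protein, was at 3.62, 1.37, 0.807 and 2.08 CPM in poor libraries and 3.12, 7.77, 4.83, 6.11 and 14.4 CPM in rich ones. Its values overlapped, since therapy replicate 1 exceeded intracranial IgG replicate 1. Slc2a5, a fructose carrier on the same list, was nearly level at -0.06 ± 0.08. The count of 10 was 3 with the label group as a term and 1 within the IgG libraries. It was 5 without both-tumor IgG replicate 2, 6 without replicate 1 or 3 of that group or therapy replicate 2, and otherwise at least 7 with 1 library left out.

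Immediate early genes were lower for some members only, with a median of -0.30, 9 folds below 0 and 4 above. Arc, a synaptic activity gene, was at most 0.379 CPM in poor libraries and 3.01 to 7.49 CPM in rich ones. Egr1 (-1.52 ± 0.25) and Egr3 (-2.59 ± 0.54) were also lower without overlap, while Fos had 0.23 ± 0.45 and Nr4a1, an orphan nuclear receptor gene, had 0.08 ± 0.09. In all, 3 of 13 tested members of this list were called lower and 0 were called higher. The count was 3 of 13 with the label group as a term and 1 of 14 within the IgG libraries.

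Among genes on no list, those with the largest folds on the lower side had few or no reads in the poor class. Cnih3, an AMPA receptor partner, had 0 reads in the poor class and 351 in the rich class, at least 97.2-fold higher in rich libraries. Csmd1 (0 against 251 reads) and Hapln2 (0 against 242 reads), a link protein of nodes in myelinated fibers, were at least 69.5-fold and 67.0-fold higher. On the higher side folds were small: Olfml2a, an extracellular matrix protein gene, had 1.65 ± 0.34, and Heyl, a Notch target, had 1.37 ± 0.29. Car6, a secreted carbonic anhydrase, was the most abundant of the 10 on that side, at 293 to 363 CPM in poor and 129 to 268 CPM in rich libraries (0.94 ± 0.19).

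Tumor cell pigment genes differed little between the classes. Of 14 pigment and melanocyte genes, 0 were called in either direction, and their median was -0.12. With libraries scaled to the summed reads of the list itself it was -0.0021. That scaling brings the list near 0 by its making, so this value adds no support. Sox10, a transcription factor of the melanocyte lineage, was at 855, 781, 794 and 803 CPM in poor libraries and 803, 798, 871, 898 and 810 CPM in rich ones (-0.01 ± 0.07). The Pmel gene, which makes the fibrils of pigment granules, had 6807, 4612, 5555 and 5182 CPM against 5029, 6369, 7007, 7416 and 6884 CPM (-0.20 ± 0.14). Both classes overlap for each. The list took 2.37% to 3.24% of reads in poor libraries and 2.74% to 3.29% in rich ones. For neural crest and dedifferentiation genes, the share called lower was near the 11.7% of all genes tested. Zeb1, an invasion-linked repressor also made by many stromal cells, was the only one of 8 tested neural crest and dedifferentiation genes to be called, at -1.46 ± 0.21, and 0 were called with the label group as a term or within the IgG libraries.

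The promoters of pigment and interferon gamma genes are shown because the scores of these lists differed in their spread over the libraries. Across the 9 libraries the pigment score (mean log2(CPM + 1)) ran from 9.47 to 9.98. The interferon gamma score, described further on, ran from 2.23 to 7.15. In both lists 0 genes were called between the classes. Any part of the promoters in this spread was not tested. Windows are 250 bases before to 50 bases after a RefSeq start, GRCm38.p6, and 8 of 14 pigment and 14 of 20 interferon gamma genes had one. Capitals mark matches on either strand: CATGTG (reverse CACATG), the core of the site bound by the pigment factor Mitf, in Tyr and Tyrp1. In Gbp2 they mark TTTCNNTTTC (reverse GAAANNGAAA), an interferon-stimulated element, and in Irf1 TTCNNNGAA, a gamma-activated site, which reads the same on both strands.
Tyr: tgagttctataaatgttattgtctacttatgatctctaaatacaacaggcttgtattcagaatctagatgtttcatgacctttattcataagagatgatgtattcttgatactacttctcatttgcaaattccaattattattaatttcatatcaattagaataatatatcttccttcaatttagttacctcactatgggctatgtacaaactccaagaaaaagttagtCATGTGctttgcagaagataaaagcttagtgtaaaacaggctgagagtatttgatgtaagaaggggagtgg
Tyrp1: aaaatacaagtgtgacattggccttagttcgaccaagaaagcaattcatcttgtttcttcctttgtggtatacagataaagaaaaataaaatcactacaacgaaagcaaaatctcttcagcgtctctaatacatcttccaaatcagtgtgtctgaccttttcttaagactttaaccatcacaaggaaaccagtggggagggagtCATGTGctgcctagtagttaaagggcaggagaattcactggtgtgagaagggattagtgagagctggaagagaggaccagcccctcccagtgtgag
Gbp2: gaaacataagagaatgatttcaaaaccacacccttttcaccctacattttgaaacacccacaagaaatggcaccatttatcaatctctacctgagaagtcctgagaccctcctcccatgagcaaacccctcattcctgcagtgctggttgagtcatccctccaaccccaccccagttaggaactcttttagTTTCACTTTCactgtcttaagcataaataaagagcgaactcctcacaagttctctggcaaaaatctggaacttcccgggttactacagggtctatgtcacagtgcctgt
Irf1: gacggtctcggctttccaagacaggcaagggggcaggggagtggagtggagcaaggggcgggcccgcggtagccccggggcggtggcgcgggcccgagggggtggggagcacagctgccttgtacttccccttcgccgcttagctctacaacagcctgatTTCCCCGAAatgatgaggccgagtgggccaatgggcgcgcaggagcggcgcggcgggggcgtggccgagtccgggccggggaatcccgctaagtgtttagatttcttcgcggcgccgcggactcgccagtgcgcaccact
Tyr lies at chr7:87493463-87493762, minus strand, and Tyrp1 at chr4:80833963-80834262, plus strand. Gbp2 lies at chr3:142620413-142620712, plus strand, and Irf1 at chr11:53769764-53770063, plus strand. The core was in 6 of the 8 pigment genes with a window and in 14.2% of all 32851 windows. The interferon-stimulated element was in 8 of the 14 interferon gamma genes with a window and in 3.44% of all windows. The gamma-activated site was in 5 of these 14 genes and in 8.30% of all windows. A gene was counted if any of its windows held the motif. The list values are thus per gene and the others per window, so they are not like for like. Irf1 has a second window at chr11:53770223-53770522, which holds no gamma-activated site and is not shown. A match describes the letters and shows no binding.

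Cell cycle genes were higher in poor libraries. All 20 had folds above 0 and 16 were called higher, with a median of 0.57, and 8 did not overlap. Top2a, a topoisomerase of dividing cells, stood at 580, 623, 612 and 532 CPM in poor libraries and 482, 368, 416, 426 and 343 CPM in rich ones (0.57 ± 0.11). Every poor library lay above every rich one. Mki67, the usual proliferation marker, overlapped and was not called (0.51 ± 0.17). The list score overlapped too, since intracranial IgG replicate 1 at 7.35 lay level with therapy replicate 3 at 7.35. The count of 16 was 7 without therapy replicate 1 or both-tumor IgG replicate 2, 9 without therapy replicate 2, 10 without both-tumor IgG replicate 1, 7 with the label group as a term, and 0 within the IgG libraries alone, with a median of 0.65 there. Hypoxia and glycolysis genes had a median of 0.05, with 0 of 13 called, and Vegfa, a vessel growth factor, ran from 37.8 to 189 CPM within the poor class alone (-0.01 ± 0.50).

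Among vessel genes, those of the blood-brain barrier and those of endothelium in general differed in size. Of 11 tested barrier genes, 6 were lower and 0 higher, with a median of -2.17. With the label group as a term 2 of 11 were called lower, and within the IgG libraries 0 of 12. Cldn5, a tight junction protein of brain endothelium (chr16:18776847-18778262, GRCm38), stood at 2.43, 6.37, 2.06 and 2.81 CPM in poor and 13.1, 14.9, 20.6, 11.1 and 27.4 CPM in rich libraries (-2.30 ± 0.38). Slco1c1, a thyroid hormone carrier, had 2 reads against 460, a ratio of 191 (52.6 to 1583). Mfsd2a, a lipid carrier of barrier endothelium, was level at 0.14 ± 0.31. Abcg2, an efflux pump, had 0.05 ± 0.09, at 32.5 to 41.4 CPM across all 9 libraries.

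Of 14 general endothelial genes, 0 were called, and 12 had folds below 0, with a median of -0.34. The list score did not overlap, at 3.40 to 3.57 in poor and 3.72 to 3.89 in rich libraries. Pecam1, an adhesion molecule of all endothelium, was at 12.5, 15.1, 14.8 and 13.7 CPM in poor and 16.9, 18.9, 19.9, 18.7 and 15.5 CPM in rich libraries (-0.32 ± 0.11). Cdh5, the endothelial cadherin, had -0.01 ± 0.15. Genes of sprouting or permeable vessels had a median of 0.08 with 1 of 10 lower (Pdgfb, -0.66 ± 0.17), and 0 lower in either further fit, with scaling to pigment genes, or without any 1 of the both-tumor IgG libraries, intracranial IgG replicate 3 or therapy replicate 3. In the main fit the share of this list called lower was near the 11.7% of all genes tested. Plvap, the protein of fenestrated vessels, had 0.56 ± 0.27 and was not called. Ackr1, the chemokine carrier of venules, was at most 0.474 CPM in poor libraries and at least 1.57 CPM in rich ones (-3.70 ± 0.56). For mural cells, 2 of 9 tested pericyte genes were lower (Rgs5 and Vtn), with a median of -0.29. Of these 9 genes 0 were called in either further fit, with scaling to pigment genes, or without any 1 of the both-tumor IgG libraries, intracranial IgG replicate 3 or therapy replicate 3. Their median was 0.25 within the both-tumor IgG mice.

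Fibroblast and collagen genes went the other way, with 10 of 10 folds above 0, 5 called higher and a median of 0.93. Col1a1, a chain of type I collagen (chr11:94936224-94953042, GRCm38), had 246, 48.7, 90.3 and 116 CPM in poor and 41.3, 62.0, 13.9, 20.3 and 32.2 CPM in rich libraries (1.91 ± 0.51). Therapy replicate 2 was below intracranial IgG replicate 2, so the classes overlapped. Col5a1, which nucleates collagen fibrils, was the 1 member without overlap, at 25.3 to 30.3 CPM against 8.28 to 19.1 CPM (1.11 ± 0.27). The count of 5 was 1 without both-tumor IgG replicate 2, 2 without replicate 1 or 3 of that group or therapy replicate 1, 1 with the label group as a term, and 0 within the IgG libraries alone, where the median was 1.21. Of 10 genes listed for neutrophils 3 were tested, with a median of 0.21. Among these, the gelatinase Mmp9 was also called higher (1.95 ± 0.54), with overlap, while Csf3r, the granulocyte colony-stimulating factor receptor, was lower (-2.34 ± 0.49). Neither was called in either further fit, and Mmp9 was not called without therapy replicate 1, intracranial IgG replicate 3 or any 1 of the both-tumor IgG libraries.

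**Figure D2:**
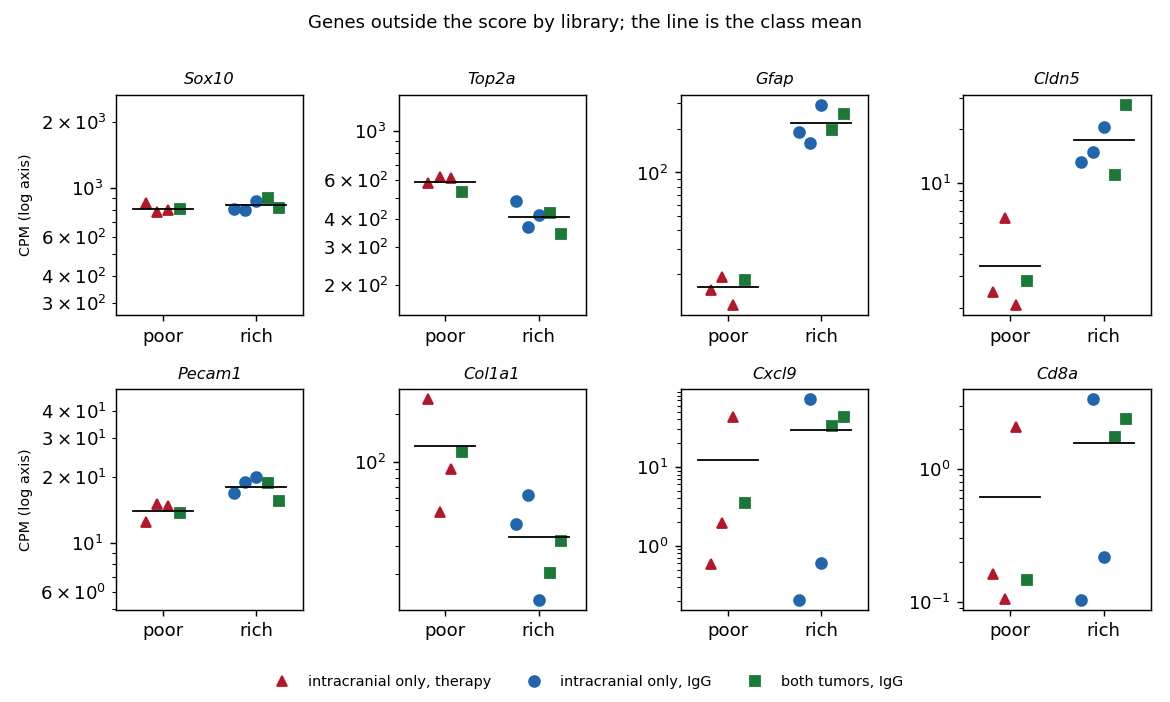
CPM of 8 genes in each poor and rich library on log axes, each panel on its own axis, with a line at the class mean. Sox10 is level, Top2a is higher in poor libraries, Gfap and Cldn5 are lower, and Cxcl9 and Cd8a spread widely within both classes.

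Interferon gamma genes differed more within the classes than between them. The interferon gamma list had 0 of 19 tested genes called and a median of -1.001, and all 19 folds were below 0. Its score was 3.83 ± 1.83 (SD, n = 4) in poor and 4.76 ± 2.25 (SD, n = 5) in rich libraries. Gbp2, an interferon-induced GTPase, was at 5.14, 20.8, 441 and 24.8 CPM in poor and 5.41, 548, 6.35, 220 and 195 CPM in rich libraries (-0.66 ± 1.42). Irf1, a transcription factor switched on by interferon gamma, was at 16.0, 27.4, 219 and 32.8 CPM against 16.4, 282, 17.7, 137 and 166 CPM (-0.73 ± 0.96). Thus therapy replicate 3 was the high library of the poor class, and intracranial IgG replicates 1 and 3 were low libraries of the rich class. The list median moved to -3.07 without therapy replicate 3 and to -0.21 without intracranial IgG replicate 2.

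T cell genes showed the same libraries apart. Of 16 tested T cell genes, Lat, an adaptor of the T cell receptor, was the 1 called lower (-0.99 ± 0.28), a smaller share than the 11.7% of all genes, and the list median was -1.34, or -3.23 without therapy replicate 3. Of this list 0 were called in either further fit, with the continuous neuron score, with scaling to pigment genes, without the filter, or without therapy replicate 1, intracranial IgG replicate 2 or any 1 of the both-tumor IgG libraries. Cd8a, a coreceptor of cytotoxic T cells, was at 0.162, 0.105, 2.06 and 0.145 CPM in poor and 0.104, 3.34, 0.217, 1.75 and 2.38 CPM in rich libraries (-1.27 ± 1.05). The Cxcl9 gene, a chemokine that draws T cells, was at 0.595, 1.95, 43.5 and 3.44 CPM against 0.208, 71.8, 0.597, 32.8 and 43.2 CPM (-1.24 ± 1.42). A low neuron score and high interferon genes thus occurred together in 1 library, and a high neuron score with low interferon genes in 2. The remaining libraries went the other way. Interferon gamma scores were 2.37, 3.10 and 3.34 in therapy replicates 1 and 2 and both-tumor IgG replicate 2. They were 7.15, 5.95 and 5.98 in intracranial IgG replicate 2 and both-tumor IgG replicates 1 and 3. The 3 libraries in neither class had 6.73, 8.44 and 7.94. A link between the 2 scores was not tested.

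**Figure D3:**
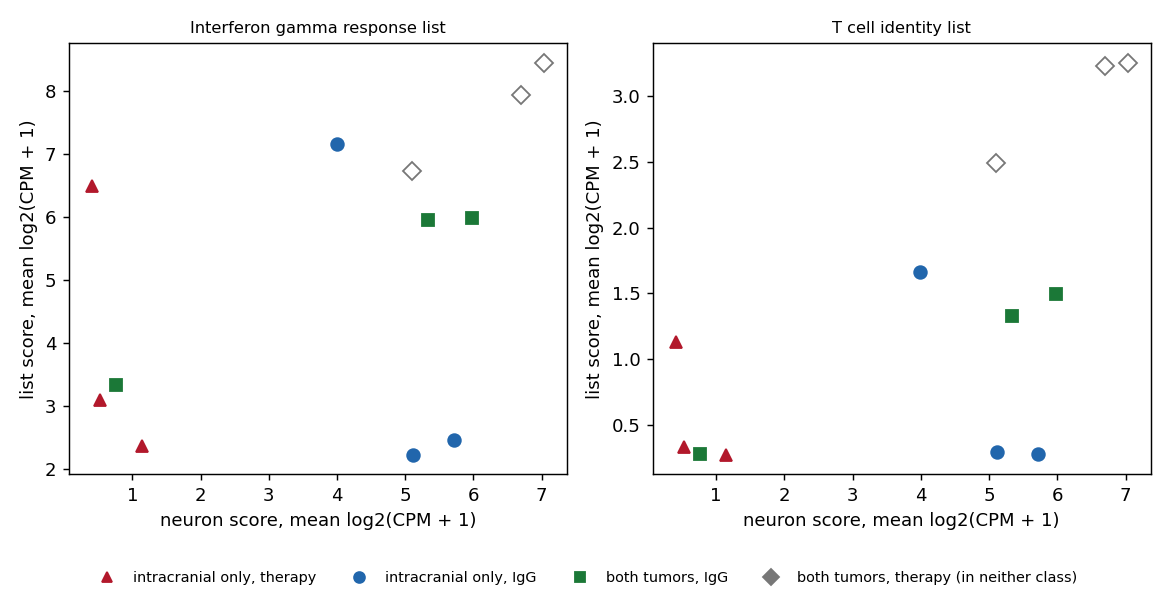
List score (mean log2(CPM + 1)) of interferon gamma response genes and of T cell genes against the neuron score in 12 libraries, with open diamonds for the 3 libraries in neither class. Among the 9 classified libraries, 1 poor library (therapy replicate 3) lies high and 2 rich libraries (intracranial IgG replicates 1 and 3) lie low on both lists. The remaining poor libraries lie low on both lists, and the remaining rich libraries and the open diamonds lie high.

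Folds were below 0 for 14 of 16 monocyte and macrophage genes and for 12 of 13 complement genes. Of the complement genes 0 were called in the main fit, with a median of -0.90. That count moved with the setting: 4 of 13 were called lower by DESeq2 and 2 without the filter. It was 4 without intracranial IgG replicate 3, and 3 without intracranial IgG replicate 1 or therapy replicate 3. Csf1r, the receptor of macrophage growth factor, was the 1 of 16 monocyte and macrophage genes called lower (-1.62 ± 0.44), a smaller share than the 11.7% of all genes, and the list median was -0.97. Of this list 0 were called in either further fit, with the continuous neuron score, or without therapy replicate 1 or 2, intracranial IgG replicate 2 or any 1 of the both-tumor IgG libraries. C1qa, the first complement component made by microglia and macrophages, had -1.75 ± 0.57 and was not called. Both genes are made by microglia, whose list was lower in poor libraries; its part in these values was not tested. MHC class I genes (0 of 8 called, median -0.99) and MHC class II genes (0 of 7 called, median -1.37) also overlapped between classes. Red blood cell genes were unequal within classes: the Hbb-bs hemoglobin gene ran from 0.897 to 14.7 CPM in poor and from 0.517 to 108 CPM in rich libraries, and its reads can be shared with Hbb-bt.

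Within the both-tumor IgG mice, where label group is held constant, replicate 2 was compared with replicates 1 and 3 in the same fit. This contrast has 1 poor library, whose spread is taken from the other groups. The contrast shares its libraries with the main one. Brain list medians there were -4.74 for other neuron, -1.87 for astrocyte and -2.45 for barrier genes. Cell cycle genes had 0.84 and collagen genes 1.62. T cell genes had -3.45 and interferon gamma genes -2.95, further from 0 than over all 9 libraries, and this group's poor library was also low in immune genes. Without that library, the T cell median was -1.05 and the interferon gamma median -0.71. Red blood cell genes turned direction, with a median of 1.13 in this group against -1.74 over the 9 libraries.

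**Figure D4:**
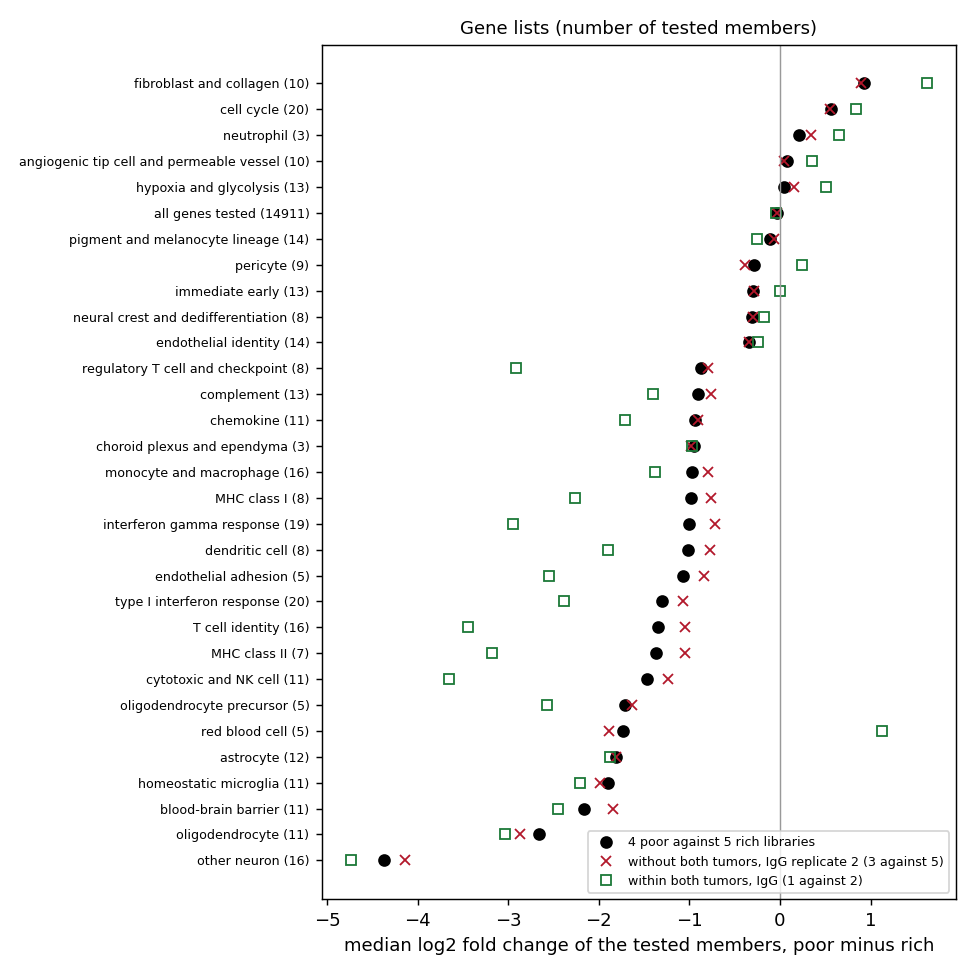
Median log2 fold change (poor minus rich) of each list with at least 3 tested genes, over all 9 libraries, without both-tumor IgG replicate 2, and within the both-tumor IgG mice. Brain, cell cycle and collagen lists lie on 1 side of 0 in all 3 contrasts, and red blood cell, pericyte and immediate early lists do not.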

How the data were processed

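RNA-seq was measured in 12 intracranial tumors, 9 of them used here. Per the labels' protocols, RNA was isolated with the RNAqueous-Micro kit and made into libraries with NEBNext Ultra RNA. The deposited count table holds raw reads per gene, which the authors made with TopHat2 2.0.12, Bowtie2 2.2.3 and HTSeq 0.6.1 on GRCm38 and mm10, per the submitters' processing notes. The sources used here give neither strand use nor the annotation release. The deposited FPKM table equals count over 1 length and total for 16062 of 16062 genes with a read in every library (relative tolerance 1e-06), so it is no second measurement. Of 47069 identifiers, 46488 matched a symbol.

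The fit was edgeR 4.0.16 (R 4.3.3) quasi-likelihood with TMM, filterByExpr (minimum count 10, minimum total 15) and Benjamini-Hochberg adjustment over 14911 genes. These held at least 99.85% of reads, and the biological coefficient of variation was 26.2%. SE is the absolute log2 fold change over the square root of F. Alternatives used DESeq2 1.42.0, limma 3.58.1 on log2(FPKM + 1), other scalings, filters and left-out libraries. Replicate numbers follow accession order and pair nothing.

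Classes, members and lists were chosen with earlier results of these data known. Named genes were a fixed list of 41, up to 2 members per list by mean FPKM and up to 2 by fold, and the 10 higher and 10 lower genes outside lists with the largest folds, at least 1 CPM in a class and no overlap. Other named genes were chosen after their values were seen. Intervals and bounds cover counting error only. Gene positions come from an annotation of GRCm38.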

Additional observations from a re-analysis of the deposited data

Results flagged for a closer look

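Among 64 pairs of class and list, 8 had a library whose gap to its nearest neighbour was large for the range of its class. By chance alone about 1 in 20 of the pairs would be flagged. Therapy replicate 3 accounted for 7 of them. Its score (mean log2(CPM + 1)) was the highest of the poor class for T cell identity (1.13, next 0.33), cytotoxic and NK cell (1.42, next 0.28), type I interferon response (5.63, next 3.10), MHC class I (8.43, next 5.70), complement (4.21, next 3.29) and endothelial adhesion (1.39, next 0.90). It was the lowest of the poor class for cell cycle (7.35, next 7.55). Several of these lists respond to the same interferons, and Tap1 and Nlrc5 stand in more than 1 list, so they are not separate observations. Intracranial IgG replicate 2 was the highest of the rich class for neutrophil genes (0.78, next 0.43), at levels near 1 CPM or less.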

How the results depend on the processing

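Counts of genes moved with the setting, while the 8 list medians tracked here kept their direction in all settings run. Genes higher in poor libraries numbered 662, but 346 with the label group as a term, 12 within IgG libraries, 1443 by DESeq2, and 274 to 1353 when 1 library was left out (274 without both-tumor IgG replicate 2, 350 without replicate 3 and 377 without replicate 1 of that group, 352 without therapy replicate 1, 1353 without intracranial IgG replicate 1). Genes lower numbered 1749, but 761 with the label group and 236 within IgG libraries. Of the genes called in either direction, 27.5% were called higher in the main fit and 42.1% by DESeq2. Scaling to pigment genes moved the median of all genes from -0.03 to 0.10. With limma on log2(FPKM + 1), which understates folds of low genes, medians were -1.95 for other neuron, -0.59 for barrier, -0.26 for endothelial and -0.35 for T cell genes. With the label group, medians were 0.84 for cell cycle, -0.25 for endothelial, 1.62 for collagen and -3.45 for T cell genes, which had -3.13 within IgG libraries. Endothelial genes had -0.21 scaled to pigment genes. With 1 library left out, medians ran from -5.04 to -4.04 for other neuron, from -2.35 to -1.16 for barrier (-1.16 without both-tumor IgG replicate 3) and from -3.23 (without therapy replicate 3) to -0.64 (without intracranial IgG replicate 2) for T cell genes, of which 4 were tested in the last. Where no other reason is given, the cause was not tested. No paired analysis was possible because the labels carry no replicate numbers. Of 1266 values under other settings, 116 moved, by at least 1 SD within classes or by more than 1.5 times for counts. A reversal was scored only for genes called in the main fit, and 0 were found. List medians could not count as reversed. Within the both-tumor IgG mice the red blood cell median was 1.13 against -1.74, and the pericyte median 0.25 against -0.29. The interferon gamma median of -3.07 without therapy replicate 3 did not count as moved, as its SD was wide. Depth (18427495 to 22294182 reads a library) limits genes under 1 CPM, such as Cd8a in 3 of the 4 poor libraries.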
